A study of Drosophila melanogaster with 16 samples.

Results

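BomBc3, BomS2 and BomS6 are 3 of the 12 Bomanin genes of Drosophila melanogaster in the RefSeq table, and 3 of the 17105 genes and unnamed probe sets measured here. Their probe sets were found by platform or current gene symbol, and each gene had 1 probe set, which carried no other symbol. The 3 were selected on earlier results of these same arrays, namely their change with hours of recovery, their ethanol minus air difference at each time and their level against unexposed heads. Those values are therefore given as a description, with no test. All 3 lay above log2 4, the minimum used for tested genes, on 16 of 16 arrays.

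Bomanins are short peptides that the fat body secretes into the hemolymph after infection with fungi or Gram-positive bacteria. Their genes are classic targets of the Toll pathway, in which the ligand Spätzle activates the receptor Toll and the inhibitor Cactus then releases the NF-κB proteins Dorsal and Dif. Flies that lack the main Bomanin gene cluster survive such infections poorly. BomS genes encode short peptides with little beyond the Bomanin motif, BomT genes peptides with an added tail, and BomBc (bicipital) genes peptides with a pair of motifs.

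Heads of adult males of the Berlin genetic background, 2 to 4 days old, were profiled on Affymetrix Drosophila 2.0 oligonucleotide arrays. In the ethanol arm flies received 30 min of ethanol vapor, made by diluting saturated vapor to 60% with humidified air. In the air arm they received 30 min of humidified air at the same total flow of 3.7 L/min. Heads were taken after 0 min of recovery, every 30 min up to 120 min, and at 180 and 210 min, with 1 array for each arm and time. Both arms thus hold 7 arrays, and flies given neither exposure make up the last 2 of the 16, unexposed A and unexposed B. The design text describes each exposed array as a pool of 3 groups of 200 flies, whereas the growth protocol names 200 flies for all conditions. With a single array per arm and time the error between pools was not measured.

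The values are log2 expression values normalized across arrays. Markers of the head were present: 7 photoreceptor genes had a mean between 13.16 and 13.44 on every array. In 4 arrays, however, transcripts of body tissue were present: the mean of 18 male reproductive tract and gut genes lay 3.19 to 5.87 log2 units above the unexposed arrays in air at 0, 60 and 120 min and in ethanol at 120 min, against -0.01 to 0.10 in the other 12. The ethanol minus air means, the slopes and the averages against unexposed heads of BomBc3, BomS2 and BomS6 are given with and without these arrays.

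BomBc3 (probe set 1628639_at, gene CG5791, chromosome arm 3R) encodes a bicipital Bomanin. After air its value was 9.80 at 0 min, 9.64 at 30 min, 10.11 at 60 min, 10.22 at 90 min, 10.35 at 120 min, 10.55 at 180 min and 10.66 at 210 min. After ethanol it was 9.79, 10.06, 10.08, 10.29, 10.87, 11.59 and 11.72 at the same times. The level was thus higher late than early in both arms, and the ethanol arm lay farthest above the air arm at 180 and 210 min. The difference at 120 min (0.52), where both arrays carried body-tissue transcripts, was close to that at 30 min (0.42). Unexposed heads stood at 10.25 (A) and 9.99 (B), inside the range of the air arm. The ethanol arrays of 180 and 210 min lay above every other array, the highest of the other 14 being 10.87. These times were picked after the values were seen. The share of all genes that separate in this way is not given here. As bulk values, these cannot tell more cells of a type apart from more RNA per cell.

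BomS2 (probe set 1640360_at, CG18106, chromosome arm 2R), a short Bomanin first known as an immune-induced molecule of the hemolymph, had the same order of arms with a smaller range. After air it stood at 13.51, 13.38, 13.50, 13.52, 13.72, 13.81 and 13.75 from 0 to 210 min. After ethanol the values were 13.49, 13.55, 13.48, 13.62, 13.81, 14.21 and 14.18. Unexposed heads had 13.47 and 13.42. The 180 and 210 min ethanol arrays, picked after the values were seen, were again the highest of all 16, and the other 14 did not pass 13.81. The arms overlapped at 0 to 90 min.

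BomS6 (probe set 1635060_at, CG15068, chromosome arm 2R), also a short Bomanin, went the other way. After air it varied little, with 13.39, 13.41, 13.32, 13.27, 13.32, 13.42 and 13.41 from 0 to 210 min. After ethanol it stood at 13.53, 13.30, 13.36, 13.16, 12.85, 12.73 and 12.87. The 3 latest ethanol arrays (12.73 to 12.87) lay below the other 13 arrays, whose lowest value was 13.16. Here too the times were picked for this gene after its values were seen, without a share over all genes. Of these 3 arrays, that of 120 min carried body-tissue transcripts and those of 180 and 210 min did not. Unexposed heads stood at 13.23 (A), just below the lowest air array (13.27), and 13.31 (B).

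**Figure D1:**
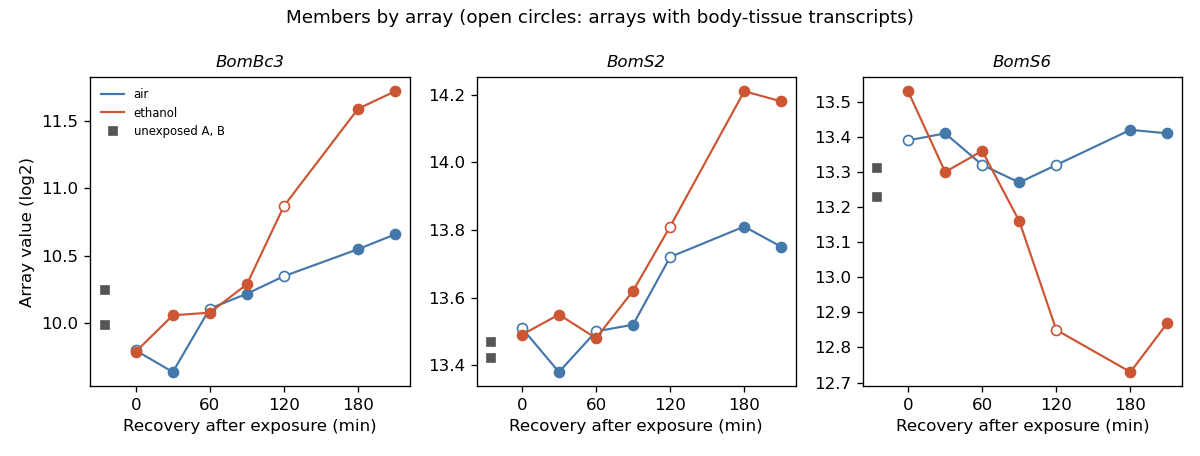
Array value (log2, vertical axes that do not start at 0) of BomBc3, BomS2 and BomS6 against minutes of recovery in air (blue) and ethanol (red), 1 array per point; squares at the left are unexposed A and B, and open circles mark the 4 arrays with body-tissue transcripts. In ethanol, BomBc3 reaches 11.72 and BomS2 14.18 at 210 min, whereas BomS6 stands at 12.87.

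Set against the air array of its own time, BomBc3 after ethanol differed by -0.01 log2 at 0 min, 0.42 at 30 min, -0.03 at 60 min, 0.07 at 90 min, 0.52 at 120 min, 1.05 at 180 min and 1.07 at 210 min. The last 2 are 2.07-fold and 2.10-fold. The mean difference over 7 times was 0.44 (SD 0.47), and it was 0.65 over the 4 pairs without body-tissue transcripts. The SD is as large as the mean because the difference sits in the late pairs: it averaged 0.11 from 0 to 90 min and 0.88 from 120 to 210 min, a division of times made after the values were seen. Without the 120 min pair, both of whose arrays carried body-tissue transcripts, the late mean was 1.06.

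For BomS2 the matched differences were -0.02, 0.16, -0.01, 0.10, 0.09, 0.40 and 0.43 from 0 to 210 min. The largest, at 210 min, is 1.35-fold. The mean was 0.16 (SD 0.19, n = 7) with all pairs and 0.27 over the 4 pairs without body-tissue transcripts. For BomS6 they were 0.13, -0.11, 0.04, -0.11, -0.46, -0.69 and -0.54, so that ethanol heads held 0.620 times the air value at 180 min. The mean was -0.25 (SD 0.31, n = 7), and -0.36 over those 4 pairs. BomBc3 and BomS2 were above air at 5 of 7 times and BomS6 at 2 of 7.

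Among all 8110 genes tested with limma, 0.419% passed an adjusted p of 0.05 as higher in the ethanol arm and 0.271% as lower. The other Bomanin genes with a probe set were BomS4, BomS5, BomBc2, BomT2 and BomT3, and 0 of these 5 were called, with 3 at unadjusted p < 0.05, which 980 of all 8110 genes passed. BomT3 had a mean difference of 0.25 (SE 0.08, limma adjusted p = 0.305) and BomBc2 one of 0.19 (SE 0.06, adjusted p = 0.305), both with the ethanol array higher at 6 of 7 times. BomT2 had -0.18 (SE 0.08, adjusted p = 0.393), with the ethanol array higher at 2 of 7 times. BomS4 stood at -0.11 (adjusted p = 0.549) and BomS5 at 0.05 (adjusted p = 0.804). Their late differences had both signs: from 120 to 210 min BomT3 averaged 0.43 and BomBc2 0.32, while BomT2 averaged -0.32 and BomS4 -0.16. The median of the 5 was 0.05, against -0.01 over all genes.

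**Figure D2:**
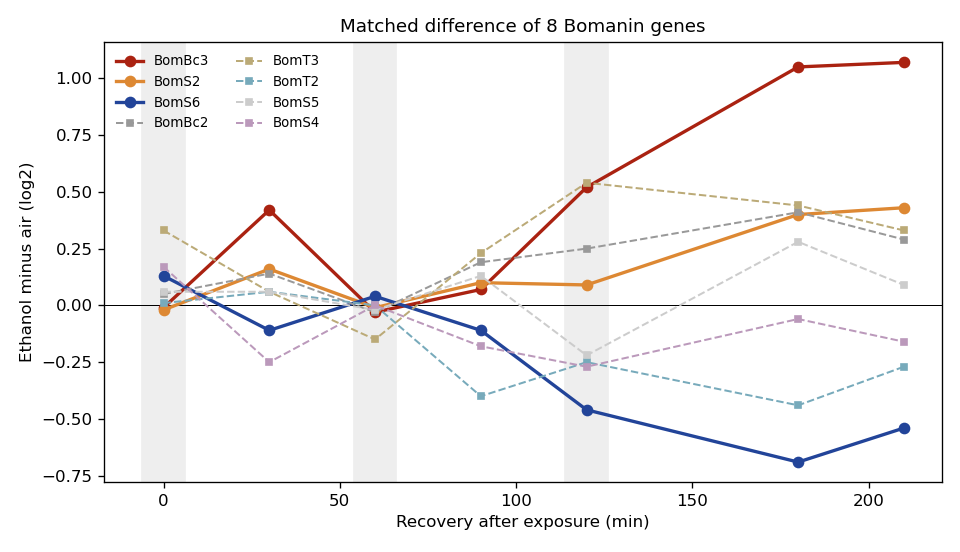
Ethanol minus air (log2) at each recovery time for 8 Bomanin genes; solid lines are BomBc3, BomS2 and BomS6, dashed lines the other 5, and grey bands mark the times at which at least 1 array of the pair carries body-tissue transcripts. The lines lie close together at 60 min and spread from -0.69 (BomS6) to 1.05 (BomBc3) at 180 min.

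The change with recovery time was expressed as a slope per hour. Its SE comes from 1 residual variance per gene, shared by the 14 exposed arrays and moderated over genes by limma, and not from each arm alone. This SE makes no allowance for the selection of BomBc3, BomS2 and BomS6 on their change with hours, so it is no test of their slopes. BomBc3 had 0.28 log2 per hour in air (SE 0.05) and 0.59 in ethanol (SE 0.05), so the slope in ethanol was steeper by 0.32 (SE 0.07). BomS2 had 0.11 in air and 0.23 in ethanol (both SE 0.03), a difference of 0.12 (SE 0.05). BomS6 had 0.01 in air and -0.22 in ethanol (both SE 0.04), a difference of -0.22 (SE 0.05). Over the 4 air and 6 ethanol arrays without body-tissue transcripts, the slopes in air and ethanol were 0.32 and 0.59 for BomBc3, 0.14 and 0.24 for BomS2, and 0.02 and -0.21 for BomS6. With 1 common slope for both arms, the values were 0.44 (SE 0.05) for BomBc3, 0.17 (SE 0.03) for BomS2 and -0.10 (SE 0.04) for BomS6, and without those arrays 0.49, 0.20 and -0.12. The common slope of BomS6 averages an arm with almost no slope and an arm with a negative one. The labels give no hour of the day, and its part in the slopes was not tested.

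Over all genes the common slope was called positive for 3.58% and negative for 0.691%, a split of 290 to 56 that became 157 to 98 when the arrays were quantile normalized again. Of the 5 other Bomanin genes, BomBc2 rose with time, by 0.14 log2 per hour (SE 0.03, adjusted p = 0.0208). In air BomBc2 stood at 13.22 at 0 min and 13.54 at 210 min, and in ethanol at 13.27 and 13.84, with 13.28 and 13.29 in unexposed heads. Its call was lost without the 30, 60 or 210 min pair (adjusted p = 0.0918, 0.0509 and 0.186). The slopes of BomS5 (0.09, adjusted p = 0.0678), BomT3 (0.10, adjusted p = 0.255), BomS4 (-0.03, adjusted p = 0.584) and BomT2 (0.00, adjusted p = 0.978) did not pass.

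By position in the Release 6 annotation, 10 of the 12 genes form 1 cluster on arm 2R and the remaining pair, BomT3 and BomBc3, are neighbours on 3R. BomS1, BomS3, BomT1 and BomBc1, all of the 2R cluster, are not analysed here. BomS6 lies at one end of the cluster beside BomS5, whose ethanol minus air slope difference was 0.03 (SE 0.05) against -0.22 (SE 0.05) for BomS6. On 3R, BomT3 had a slope of 0.05 in air and 0.14 in ethanol (both SE 0.06), while BomBc3, beside it, had 0.28 and 0.59. BomS4 and BomBc2 overlap in the annotation, and signal shared between their probe sets was not tested. Differences between genes were not tested.

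**Figure D3:**
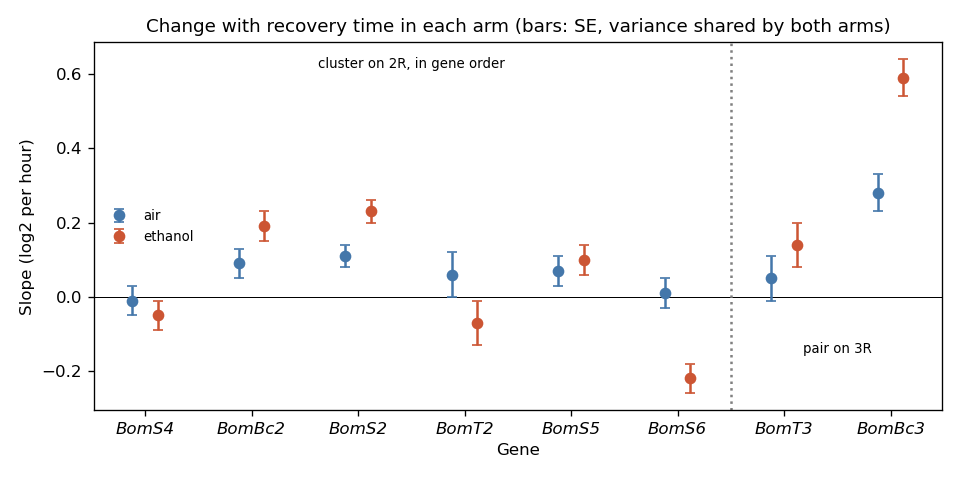
Slope over recovery (log2 per hour) in air (blue) and ethanol (red) for 8 Bomanin genes in the order of the 2R cluster, then the 3R pair; points are estimates and bars are SE from a residual variance shared by both arms (14 arrays). BomBc3 has the steepest slopes of the 8 (0.28 and 0.59), and BomS6 the most negative one in ethanol (-0.22).

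Against the mean of the unexposed arrays, the ethanol arrays of 180 and 210 min averaged 1.54 log2 higher for BomBc3 (2.91-fold) and 0.76 higher for BomS2 (1.69-fold), and BomS6 stood at -0.47 (0.723 times). The air arrays of those times averaged 0.48, 0.34 and 0.15. The unexposed arrays differed from each other by 0.26 in BomBc3, 0.05 in BomS2 and -0.08 in BomS6 (A minus B). For BomBc3 the earliest exposed arrays lay below the unexposed mean, by -0.32 in both arms at 0 min and by -0.48 in air at 30 min. Averaged over all times the differences were 0.51 (SE 0.43) for BomBc3, 0.32 (SE 0.18) for BomS2 and -0.15 (SE 0.16) for BomS6 in ethanol, and 0.07 (SE 0.43), 0.16 (SE 0.18) and 0.10 (SE 0.16) in air. Without the arrays that carry body-tissue transcripts these averages were 0.47, 0.31 and -0.11 in ethanol and 0.15, 0.17 and 0.11 in air. The spread in these values includes the change over recovery, and both arms share the same 2 unexposed arrays.

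Over all genes, 0.481% were called higher and 0.234% lower in ethanol than in unexposed heads, and 0% in each direction in air, where limma called 0 of 8110 genes with 520 at unadjusted p < 0.05. The split in ethanol, 39 to 19, became 21 to 22 when the arrays were quantile normalized again. None of the 5 other Bomanin genes was called by limma in either comparison, and 0 had unadjusted p < 0.05. In ethanol against unexposed heads 899 of all 8110 genes passed unadjusted p < 0.05. BomT2 had the smallest p in ethanol (-0.23, SE 0.15, adjusted p = 0.68) and BomT3 in air (-0.16, SE 0.17, adjusted p = 1).

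Toll pathway genes other than Bomanins came from 3 lists. Of the extracellular recognition proteins, proteases, ligand and receptor, 8 of 12 genes were tested. In this list 2 rose with time, where 3.58% of all genes did: grass, a protease of the cascade that activates Spätzle, by 0.12 log2 per hour (SE 0.02, adjusted p = 0.0155), and Hayan, another serine protease of the immune cascades, by 0.22 (SE 0.05, adjusted p = 0.0248). In air grass stood at 9.29 at 0 min and 9.67 at 180 min and was higher still at 210 min, and in ethanol it stood at 9.31, 9.53 and 9.71 at those times. Hayan went from 5.23 to 6.15 in air and from 5.36 to 6.22 in ethanol. The other 6 did not pass, and the median slope of the 8 was 0.04, against 0.01 over all genes. Without the 4 arrays that carry body-tissue transcripts neither call held (adjusted p = 0.12 for grass and 0.0578 for Hayan). The call of grass was also lost without the 0 or 210 min pair (0.0627 and 0.124). That of Hayan was lost under 6 of 12 alternatives, with no minimum (0.0651), after quantile normalization again (0.0519) and without the 0, 30 or 210 min pair (0.0712, 0.107 and 0.176) besides.

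Of the intracellular list 11 of 13 genes were tested and 1 rose with time, against 3.58% of all genes: Deaf1, a transcription factor that can promote antimicrobial peptide expression, by 0.48 log2 per hour (SE 0.08, adjusted p = 0.00746). Deaf1 was at its lowest at 0 min in both arms (4.55 in air, 4.20 in ethanol) and reached 6.52 and 6.80 at 210 min, next to 6.66 and 6.54 in unexposed heads. Its call was lost without the arrays with body-tissue transcripts (adjusted p = 0.0559) and without the 210 min pair (0.0706). The other 10 did not pass. cact, which encodes the inhibitor Cactus, had 10.57 to 10.87 in air and 11.13, 11.15, 11.41 and 11.25 in ethanol from 0 to 90 min, then 10.81, 10.53 and 10.69. Its mean ethanol minus air difference was 0.26 (SE 0.11, adjusted p = 0.402) and its common slope -0.10 (adjusted p = 0.23). The probe set of Dif lay between 2.15 and 2.17 on all arrays, under the minimum for testing.

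Of 13 other Toll effector genes 5 were tested, and 2 of these rose with time, against 3.58% of all genes. Drs, the antifungal peptide Drosomycin, rose by 0.33 log2 per hour (SE 0.07, adjusted p = 0.0214), from 10.05 to 10.69 in air and from 9.93 to 11.67 in ethanol between 0 and 210 min. The unexposed arrays stood 1 log2 unit apart in Drs, at 11.28 (A) and 10.28 (B). Bbd (Bombardier), which short Bomanins need to accumulate in hemolymph, rose by 0.09 (SE 0.02, adjusted p = 0.0438), from 12.80 to 13.21 in air and from 12.96 to 13.33 in ethanol. The call of Bbd was lost under 9 of 12 alternatives, over which its adjusted p ran from 0.0204 to 0.378, and that of Drs under 5 (0.0162 to 0.0841). Mtk, the antifungal peptide Metchnikowin, did not pass (median slope of the list 0.23, 4 of 5 slopes above 0). No gene of these 3 lists was called by limma for ethanol minus air, with 4, 1 and 1 at unadjusted p < 0.05, which 980 of all 8110 genes passed. There Drs had 0.13 (SE 0.21, adjusted p = 0.859), Bbd 0.12 (SE 0.05, adjusted p = 0.393) and Mtk -0.42 (SE 0.21, adjusted p = 0.456).

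**Figure D4:**
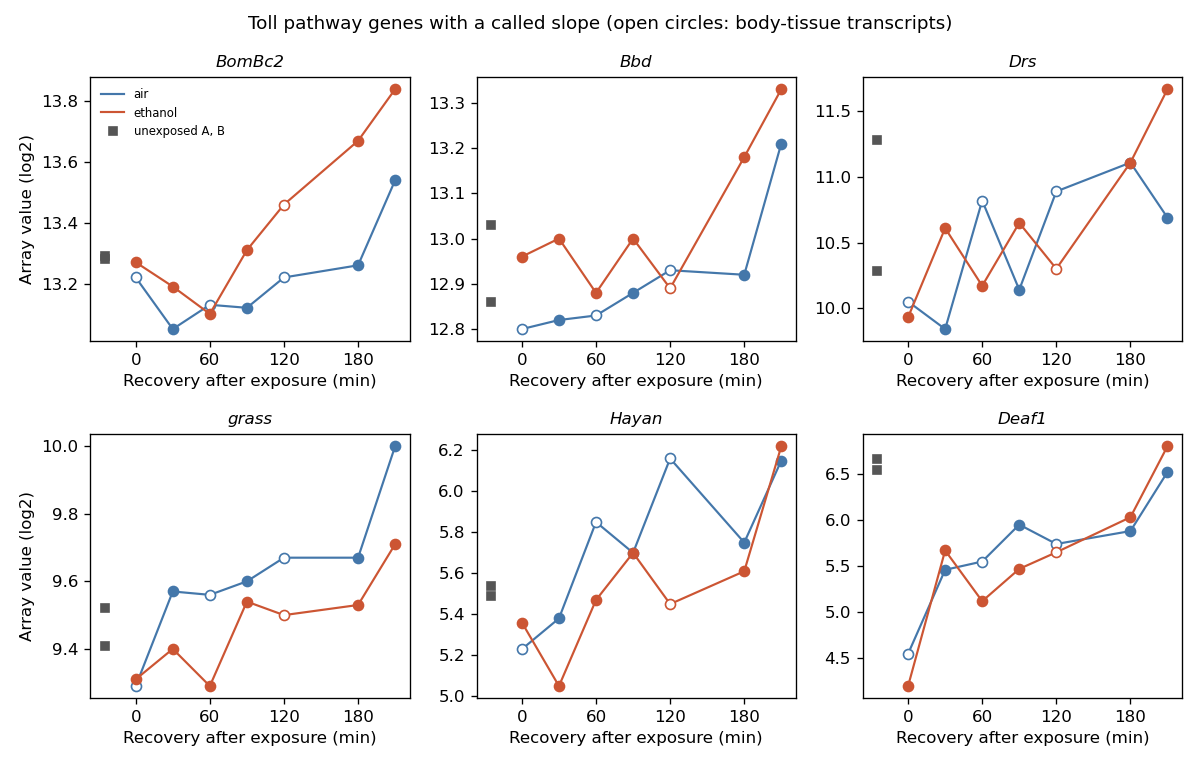
Array value (log2, vertical axes that do not start at 0) against minutes of recovery for the 6 genes of the Bomanin and Toll lists whose common slope was called, other than BomBc3, BomS2 and BomS6; colours and symbols as in the plot of those 3 genes. Deaf1 runs from 4.20 to 6.80 in ethanol and from 4.55 to 6.52 in air, and grass stands higher in air than in ethanol at 6 of 7 times.

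Cells known to make immune peptides were followed by their markers. For the fat body, 11 genes had a mean between -0.17 and 0.13 of the unexposed level in air (median -0.07) and between 0.05 and 0.34 in ethanol (median 0.21). In ethanol that mean was 0.25 at 0 min, 0.05 at 180 min and 0.34 at 210 min, and the other times lay between 0.08 and 0.23. Lsp2, a storage protein gene, weighed most in it: it averaged 1.48 above unexposed in ethanol, next to 0.49 for Lsd-1, and 5 of the 11 genes lay above unexposed. Without Lsp2, a check chosen after seeing the data, the mean of the other 10 ran from -0.14 to 0.05 in air and from -0.22 to 0.20 in ethanol. Of the 11 genes 0 were called by limma for ethanol minus air or for the common slope. At unadjusted p < 0.05 there were 4 and 3 of them, against 980 and 1499 of all 8110 genes. The fat body genes Fbp1, Fbp2, Yp1 and Yp2 lay under the minimum. The mean of 14 hemocyte genes ran from -0.05 to 0.11 in air and from -0.15 to 0.08 in ethanol. For the common slope limma called 1 of the 14 as rising, against 3.58% of all genes, and 5 had unadjusted p < 0.05. For ethanol minus air 0 were called, 3 had unadjusted p < 0.05, and 2 of the 14 estimates lay above 0. Over all 8110 genes 1499 and 980 passed unadjusted p < 0.05 in these comparisons. The part of either cell type in the Bomanin values was not tested. The 180 and 210 min arrays of both arms carried no body-tissue transcripts.

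Across the 16 arrays BomBc3 and BomS2 had a Pearson's r of 0.96 with each other, and of -0.84 and -0.76 with BomS6 (Spearman's rho 0.87, -0.59 and -0.45). Over the 12 arrays without body-tissue transcripts these were 0.97, -0.85 and -0.79. Within the 7 ethanol arrays r with BomS6 was -0.93 for BomBc3 and -0.90 for BomS2, and within the 7 air arrays -0.03 and 0.21, so the opposite course of BomS6 appeared in the ethanol arm. These are descriptions over arrays that share recovery time and arm.

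The likeness of other genes to each Bomanin gene was taken as Pearson's r of log2 values, over the 16 arrays and over the 12 without body-tissue transcripts, among 7103 other genes with a single symbol. Arrays share recovery time and arm, so any gene with a late ethanol difference scores high. For BomBc3 the highest r over 16 arrays was that of CG5326 (0.98, Spearman's rho 0.96), followed by BomS2 (0.96), lncRNA:alphagamma-element:CR32865 (0.93), CG9747 (0.91) and Sid (0.91). CG5326 kept the highest place over 12 arrays (0.99), ahead of BomS2, enok, cmb and lncRNA:alphagamma-element:CR32865. In ethanol CG5326 went from 9.06 at 0 min to 10.03 and 10.20 at 180 and 210 min, and in air from 9.18 to 9.65 and 9.44.

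For BomS2 the 5 were CG5326 (0.96), BomBc3 (0.96), scaf6 (0.94), Sid (0.93) and CCT5 (0.93), and over 12 arrays BomBc3 and CG5326 (both 0.97), Vps13, Sid and CCT5. For BomS6 they were Ance-4 (0.95), Pcyt2 (0.94), Acer (0.93; like Ance-4 a relative of angiotensin-converting enzyme), CG16743 (0.93) and CG6834 (0.92). Over 12 arrays Pcyt2, an enzyme gene of phosphatidylethanolamine synthesis, came first (0.97), before CG4822, Nepl6, Cyp4d1 and Ance-4. Spearman's rho was lower for BomS6 (0.68 for Ance-4 and 0.83 for Pcyt2 over 16 arrays). Pcyt2 had 9.52 at 0 min in ethanol and 8.48, 8.02 and 7.97 at 120, 180 and 210 min, and between 9.11 and 9.55 in the air and unexposed arrays.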

How the data were processed

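The authors deposited log2 expression values, computed with GCRMA per the submitters' processing notes (version not given), which corrects background by probe sequence and quantile normalizes arrays. Array medians lay between 2.88 and 3.03. A change in total RNA per head cannot be seen in such values.

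Of 18952 probe sets, 183 controls were left out. Symbols came from the platform annotation and, by Entrez ID, the RefSeq Release 6 table: 13647 probe sets had 1 symbol, 402 several and 4720 none. The probe set with the highest mean stood for a gene, and 8110 of 17105 features reached log2 4 in at least 3 arrays.

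All kept features were fitted together with limma 3.58.1 (R 4.3.3), with Benjamini-Hochberg adjustment: ethanol minus air with time as a factor, a common slope per hour with arm as a factor, and each arm against unexposed in 1 model with 3 groups. Models were tested on simulated data. Arrays of 1 arm differ in time, so no p-value measures the spread between pools of 1 arm and time. For ethanol minus air it measures the spread of the matched differences, and for the slope the spread about the fitted lines. Against unexposed the spread includes the change over recovery. Alternatives were no minimum or log2 6, quantile normalization again, trend and robust variances, times not matched, and leaving out arrays with body-tissue transcripts, 1 time pair or 1 unexposed array. Named genes were, per list and comparison, up to 4 called genes or else the 2 with the smallest p, plus Drs, Bbd, cact and Dif, and the 5 most alike genes. Members and lists were chosen with earlier results of these data known. Figures used Python 3.11.15 and matplotlib 3.10.9.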

Additional observations from a re-analysis of the deposited data

How the results depend on the processing

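The members kept their direction for ethanol minus air and the common slope under every alternative that can move a value (quantile normalization again, leaving out body-tissue arrays, 1 time pair). The members were selected on these comparisons, and the alternatives reuse the same arrays. A kept direction is therefore a description and no independent support. BomBc3 ran from 0.34 to 0.65, BomS2 from 0.12 to 0.27 and BomS6 from -0.36 to -0.18 for ethanol minus air. The slope of BomBc3 became 0.49 without body-tissue arrays. Each member has 1 probe set, so no other probe set could be tried. Counts of called genes moved. Ethanol minus air (56) gave 0 with no filter, 24 without body-tissue pairs, 45 with no replicate block (times not matched) and 8 to 104 without 1 time pair. The slope (346) gave 166 with no filter, 121 without body-tissue arrays and 78 to 313 without 1 pair. Ethanol against unexposed (58) gave 14 without body-tissue arrays, 15 to 136 without 1 pair, and 1 or 0 without unexposed A or B. Air against unexposed (0) gave 10 with no filter, 1 with a minimum of log2 6, 2 with trend and robust variances, and 0 to 10 without 1 pair or 1 unexposed array. The causes were not tested. With 1 array for each arm and time, a late difference rests on 3 arrays an arm. That of 120 min carried body-tissue transcripts in both arms. The averages of 180 and 210 min rest on 2 arrays an arm. How much signal the short Bomanin genes' probe sets share was not tested.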

Other observations

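The Imd pathway is the other immune pathway that makes antimicrobial peptides in flies. Of 19 effector genes listed for it, 5 were tested. In the 7 air arrays their mean lay 0.44 to 1.15 log2 above the mean of the unexposed arrays. In the 7 ethanol arrays it lay 0.20 to 1.35 above, and the unexposed arrays stood at 0.15 (A) and -0.15 (B). However, PGRP-SB1, 1 of the 5, averaged 10.73 in ethanol and 10.91 in unexposed heads. In ethanol against unexposed heads limma called 1 of the 5 higher, where 0.481% of all genes were. This was pirk, an inhibitor of the pathway, with 1.57 (SE 0.29, adjusted p = 0.0207). It rose from 5.51 in unexposed heads (5.92 in A, 5.10 in B) to 7.08. Of 11 tested Imd signalling genes 1 was called higher in that comparison, against the same 0.481% of all genes. It was Rel, the NF-κB factor of the pathway, which rose by 0.98 (SE 0.18, adjusted p = 0.0178), from 9.61 to 10.59. The median of the 11 was 0.07 in both arms, against 0.04 (ethanol) and 0.05 (air) over all genes. In air against unexposed heads pirk and Rel had 1.25 (limma adjusted p = 0.233) and 0.60 (adjusted p = 0.411), and both comparisons share the unexposed arrays. For ethanol minus air limma called 0 genes of these 2 lists, where 0.419% of all genes were called higher and 0.271% lower. The ethanol calls of pirk and Rel were both lost in limma without body-tissue arrays (adjusted p = 0.0723 and 0.086). Both were also lost without the 30 min pair (0.051 each) and without the 60 min pair (0.0629 and 0.0517). That of pirk was lost with no minimum (0.057) as well. Neither held with 1 unexposed array left out, where pirk stood at 1.98 (without A) and 1.16 (without B), and Rel at 1.02 and 0.94. Unlike BomBc3, whose highest ethanol values were at 180 and 210 min, Rel had its highest at 90 min (11.07) and 10.15 and 10.42 at 180 and 210 min. Of 3 tested Turandot and JAK-STAT genes, 0 were called by limma in the 4 comparisons, and 0 had unadjusted p < 0.05. Over all 8110 genes limma called 56 for ethanol minus air, 346 for the slope and 58 for ethanol against unexposed. For air against unexposed it called 0. At unadjusted p < 0.05 there were 980, 1499, 899 and 520 in the same order. With 3 genes, counts of 0 say little about these genes as a group.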
